A study of Mus musculus with 4 samples.

Results

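The 46 genes described here encode proteins of the centromere, the kinetochore, the spindle assembly checkpoint and the chromosomal passenger complex. They were chosen by name for these roles, with no threshold on their values but with earlier results of these data known, and all 46 were found among the 18193 genes that have a probe set with a single gene symbol on the array. By role they fell into 16 centromere proteins, 15 proteins of the outer kinetochore, 9 proteins of the spindle checkpoint and 6 proteins of the passenger complex and the shugoshins. RNA came from 2 mammary tumor cell lines, 8534 and 8542, each derived from a primary tumor of a female MMTV-tTA/TOP-ICN1 mouse on an FVB/N;B6 background. In both lines the mammary tumor virus promoter drives the tetracycline transactivator, which switches on human ICN1, the intracellular and constantly active part of NOTCH1. The doxycycline group (ICN1 off) received 2 µg/ml of the drug over 24 hours, and the untreated group (ICN1 on) received none. Both groups carry the same transgenes and no cells without them were analysed here, so that loss of ICN1 and the drug itself cannot be told apart. A single array was run for each line in each condition, 4 in all. The lines are the replicates (n = 2), and their number sets the precision of each value.

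The kinetochore is the protein assembly that ties a chromosome to spindle microtubules in mitosis. It is built on centromeric chromatin marked by the histone H3 variant CENP-A, to which a constitutive network of CENP proteins binds. The network recruits the outer kinetochore, whose NDC80 complex grips the microtubule. Kinetochores that lack a microtubule recruit the checkpoint proteins and so delay anaphase, and the passenger complex, with the kinase Aurora B, releases faulty attachments. Transcripts of many of these genes are known to accumulate as cells approach mitosis, and the genes are often read as a measure of dividing cells.

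The deposited values were log2 MAS5 signals, and signals are given below in MAS5 units on the linear scale. The trimmed mean signal was between 97.7 and 101.8 units on the 4 arrays and the median between 29.1 and 30.5 units. Hey1, a known NOTCH target, was at 96.4 and 101 units in doxycycline-treated cells of lines 8534 and 8542, against 1138 and 762 units in untreated cells, which bears out the labels. The human transgene itself was not measured here. The 5 luminal epithelial markers Krt8, Krt18, Krt19, Epcam and Cdh1 lay between 1431 and 8044 units on every array. Of these Krt8 and Krt18 rose with doxycycline (limma adjusted p = 0.0295 and 0.0163), Krt19 fell 1.76-fold and 1.90-fold (limma adjusted p = 0.00302), and Epcam and Cdh1 did not pass. Of the leukocyte markers, Ptprc lay between 6.08 and 7.20 units and Cd3e between 6.70 and 10.7 units. Cd68 was higher, at 67.9 and 42.8 units in treated and untreated 8534 cells and 41.2 and 34.6 units in 8542 cells. The basal keratin Krt14 separated the lines, at 869 and 1379 units in treated and untreated 8534 cells but at 10.0 and 15.9 units in 8542 cells. The other basal markers did not separate them in this way. Krt5 had 28.9 and 52.9 units in treated and untreated 8534 cells, and 33.6 and 15.3 units in 8542 cells. Trp63 had 17.4 and 7.53 units in 8534 cells, and 11.3 and 8.85 units in 8542 cells. Summed signals of the leukocyte, fibroblast and endothelial markers were 47.0 to 248 units with doxycycline and 43.3 to 193 units without. The fibroblast marker Col3a1 also separated the lines, at 226 and 151 units in treated and untreated 8534 cells but 16.6 and 15.7 units in 8542 cells. The fibroblast markers Pdgfra and Dcn did not.

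Most genes of the kinetochore fell in both lines once ICN1 was switched off. A gene was called when the change passed limma, a linear model with the cell line as a block, at an adjusted p under 0.05 over 33778 probe sets. Of the 46 genes 37 fell, none rose and 9 did not pass, and at an unadjusted p under 0.05 limma also found none higher. Of all 15070 genes tested in this way 6.95% fell and 4.76% rose. The falls of the median gene among the 46 were 4.15-fold (line 8534) and 6.60-fold (line 8542), with a median log2 change of -2.58 when the lines are averaged. Over all genes tested the median log2 changes in the lines were 0.01 and 0.00014. A fall of more than 2-fold in both lines was seen for 32 of the 46, against 4.18% of all genes, and a fall of more than 4-fold in both lines for 22, against 1.44%. None was more than 2-fold higher in both lines, as 2.33% of all genes were. In 43 of the 46 both doxycycline arrays lay below both untreated arrays, which was so for 23.1% of all genes. The calls rest on the variance model. Without its intensity trend limma called none of the 46 (38 were lower at an unadjusted p under 0.05), and without the pairing by line it called 1, Spc24. From bulk RNA, fewer cells in mitosis and less RNA per cell cannot be told apart.

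**Figure D1:**
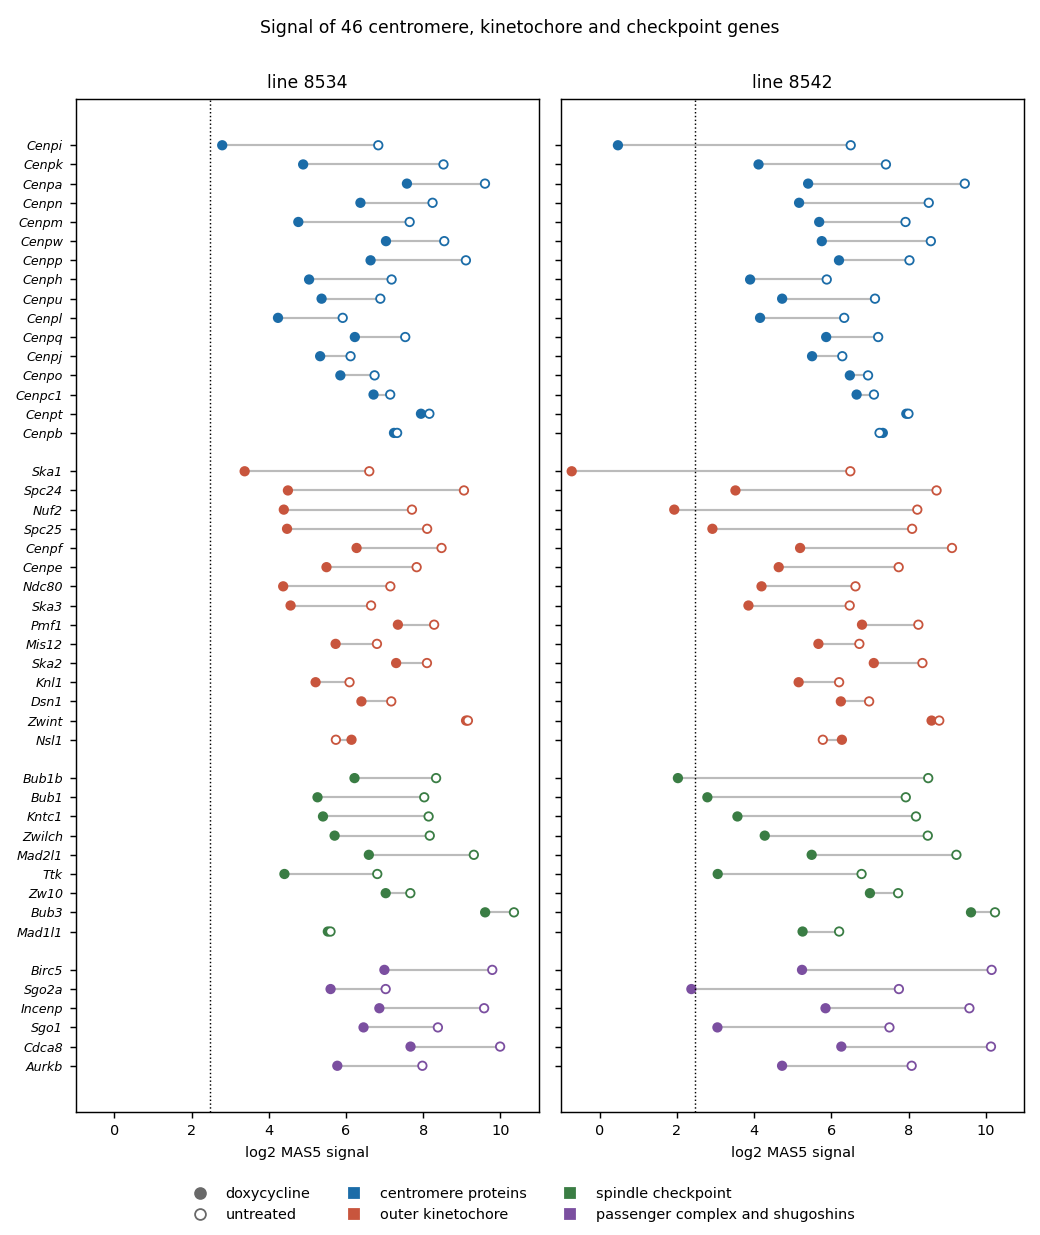
Log2 MAS5 signal (x axis) of each of the 46 genes, by role and, within a role, by mean change. Filled points are the doxycycline array and open points the untreated array of line 8534 (left) and line 8542 (right), with a dotted line at 5.52 units, the level below which 20% of all array values lie. In line 8542 the filled points of 5 genes lie left of that line, and in line 8534 those of none do.

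The fall of the kinetochore genes went with that of general markers of cycling cells. Mki67, which encodes Ki-67, was at 76.9 and 23.3 units in treated cells of lines 8534 and 8542, against 762 and 585 units in untreated cells. Top2a, Ccna2 and Cdk1 fell as well, and the median fall of these 4 markers was 6.22-fold (line 8534) and 17.7-fold (line 8542). Whether the kinetochore genes fell beyond what fewer dividing cells would give was not tested.

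Among the centromere proteins 11 of 16 fell, the median over all 16 was 3.03-fold lower (line 8534) and 4.23-fold lower (line 8542), and the 5 that did not pass were those of CENP-B, CENP-C, CENP-J, CENP-O and CENP-T. Cenpa, the gene of the centromeric histone itself, was at 191 and 42.2 units in treated cells of lines 8534 and 8542, against 775 and 702 units in untreated cells. It was thus 4.06-fold and 16.6-fold lower (mean log2 fold change -3.04 ± 1.44, SD over n = 2 lines as throughout, limma adjusted p = 0.00500). Cenpi, a subunit of the CENP-H/I/K/M complex, had 6.94 and 1.39 units in treated and 114 and 90.6 units in untreated cells. This was the largest mean fall of the group (-5.03 ± 1.40, limma adjusted p = 0.00282), and with the treated signal of line 8542 raised to 5.52 units it was 16.5-fold in line 8534 and 16.4-fold in line 8542. Cenpk, of the same complex, had 29.7 and 17.3 units in treated cells, against 368 and 171 units in untreated cells. Its fall was of like size in both lines, 12.4-fold and 9.84-fold (-3.47 ± 0.24, limma adjusted p = 0.000356), but the call was lost when its 3 probe sets were averaged (limma adjusted p = 0.0942).

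Cenpn, whose product binds the CENP-A nucleosome, was at 82.9 and 35.9 units with doxycycline and 303 and 368 units without, 3.65-fold and 10.3-fold lower (limma adjusted p = 0.00384). The other CENP-H/I/K/M subunits, Cenpm (7.38-fold and 4.71-fold) and Cenph (4.40-fold and 3.96-fold), fell more in line 8534 than in line 8542, as did Cenpp of the CENP-O/P/Q/U complex (5.53-fold and 3.54-fold). Cenpl, the partner of Cenpn, fell 3.19-fold and 4.53-fold, Cenpu fell 2.87-fold and 5.29-fold, and Cenpq fell 2.47-fold and 2.54-fold. Cenpw, which forms a histone-fold complex with CENP-T, fell 2.85-fold and 7.08-fold.

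The partners in 1 complex did not always change alike. Cenpt had 246 units on both treated arrays, against 286 and 256 units on the untreated arrays, a change of -0.14 ± 0.11 on the log2 scale (limma adjusted p = 0.659) beside -2.17 ± 0.93 for Cenpw. The 2 groups of arrays were close for Cenpt but did not overlap. Cenpo had 57.8 and 89.2 units in treated cells, against 107 and 124 units in untreated cells (-0.68 ± 0.29, limma adjusted p = 0.0988), the smallest change of the CENP-O/P/Q/U subunits. Cenpb, whose product binds a motif in centromeric satellite DNA, had 151 and 161 units with doxycycline and 160 and 152 units without (0.0020 ± 0.12, limma adjusted p = 0.997). Its arrays overlapped, and the sign of its mean change turned when the arrays were centred on their medians (-0.00448).

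Cenpc1, which encodes the CENP-C scaffold between the CENP-A nucleosome and the outer kinetochore, had 105 and 101 units in treated cells, against 142 and 138 units in untreated cells. The difference, 1.35-fold and 1.36-fold, hardly varied between the lines (-0.44 ± 0.012) but did not pass (limma adjusted p = 0.195). Cenpj had 40.2 and 45.3 units in treated cells and 69.5 and 77.9 units in untreated cells, 1.73-fold and 1.72-fold lower (limma adjusted p = 0.0899). Despite its name CENP-J is known as a protein of the centriole and not of the centromere.

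In the outer kinetochore 12 of 15 genes fell, the median over all 15 was 4.24-fold and 5.40-fold lower in lines 8534 and 8542, and the NDC80 complex changed most. Spc24, which joins the complex to the inner kinetochore, had 22.6 and 11.4 units in treated cells, against 532 and 423 units in untreated cells. It was 23.6-fold and 37.0-fold lower (-4.88 ± 0.46, limma adjusted p = 0.000164), and no other of the 46 had so low an adjusted p. Its partner Spc25 had 22.2 and 7.57 units with doxycycline and 275 and 273 units without, 12.4-fold and 36.0-fold lower (-4.40 ± 1.09, limma adjusted p = 0.000990). Nuf2, which binds microtubules with Ndc80, had 21.0 and 3.82 units in treated cells, against 209 and 300 units in untreated cells. It fell 9.97-fold in line 8534 and, with the low treated signal raised to 5.52 units, 54.2-fold in line 8542 (limma adjusted p = 0.00406). Ndc80 fell 6.84-fold and 5.40-fold, the least of the 4 subunits (-2.60 ± 0.24, limma adjusted p = 0.00169).

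The SKA complex, which holds NDC80 on shrinking microtubules, was uneven. Ska1 had 10.4 and 0.606 units in treated cells, against 97.2 and 90.0 units in untreated cells, the largest mean log2 change of all 46 genes (-5.22 ± 2.82, limma adjusted p = 0.0131). That size rests on a signal near background in line 8542, since with it raised to 5.52 units the falls were 9.36-fold and 16.3-fold. Ska3 fell 4.24-fold and 6.16-fold, whereas Ska2 fell by only 1.74-fold and 2.39-fold (-1.03 ± 0.33, limma adjusted p = 0.0122). At the fibrous corona, the outermost layer of the kinetochore, the kinesin Cenpe fell 5.04-fold and 8.61-fold and Cenpf 4.59-fold and 15.3-fold.

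The KNL1 complex and the MIS12 complex, the latter of which links NDC80 to the centromere, changed less by the probe sets used. Knl1, the scaffold on which BUB proteins assemble, had 37.1 and 35.6 units in treated cells, against 68.2 and 73.6 units in untreated cells (-0.96 ± 0.12, limma adjusted p = 0.0553), and it passed only when dimmer probe sets were left out of the fit (limma adjusted p = 0.0346). Zwint, its binding partner, had 552 and 387 units with doxycycline and 571 and 444 units without (-0.12 ± 0.11, limma adjusted p = 0.649). The arrays of the 2 groups overlapped for Zwint, and none of its 7 probe sets was called. In the MIS12 complex Mis12 fell 2.10-fold and 2.09-fold, Pmf1 1.92-fold and 2.75-fold and Dsn1 1.71-fold and 1.66-fold. The further Pmf1 probe set (1416707_a_at) fell more (-2.50, limma adjusted p = 0.0203). It had 38.7 and 7.20 units in treated cells, against 105 and 84.9 units in untreated cells. Dsn1 lay at the threshold (limma adjusted p = 0.0492) and was lost with quantile normalization (adjusted p = 0.0701), median centring (adjusted p = 0.0516) or no filter on level (limma adjusted p = 0.0733).

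Nsl1, the remaining MIS12 subunit, could not be given a direction. Its probe set with the higher mean value (1447705_at) had 70.7 and 77.4 units in treated cells, against 53.4 and 55.0 units in untreated cells (0.45 ± 0.063, limma adjusted p = 0.293). The other (1455852_at) had 9.78 and 8.69 units in treated cells, against 71.0 and 98.5 units in untreated cells, and was called lower (-3.18, limma adjusted p = 0.00246). The 2 probe sets thus moved apart in each line, and over their mean Nsl1 was called lower (-1.37, limma adjusted p = 0.0335). Which part of the transcript each probe set reads was not examined.

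**Figure D2:**
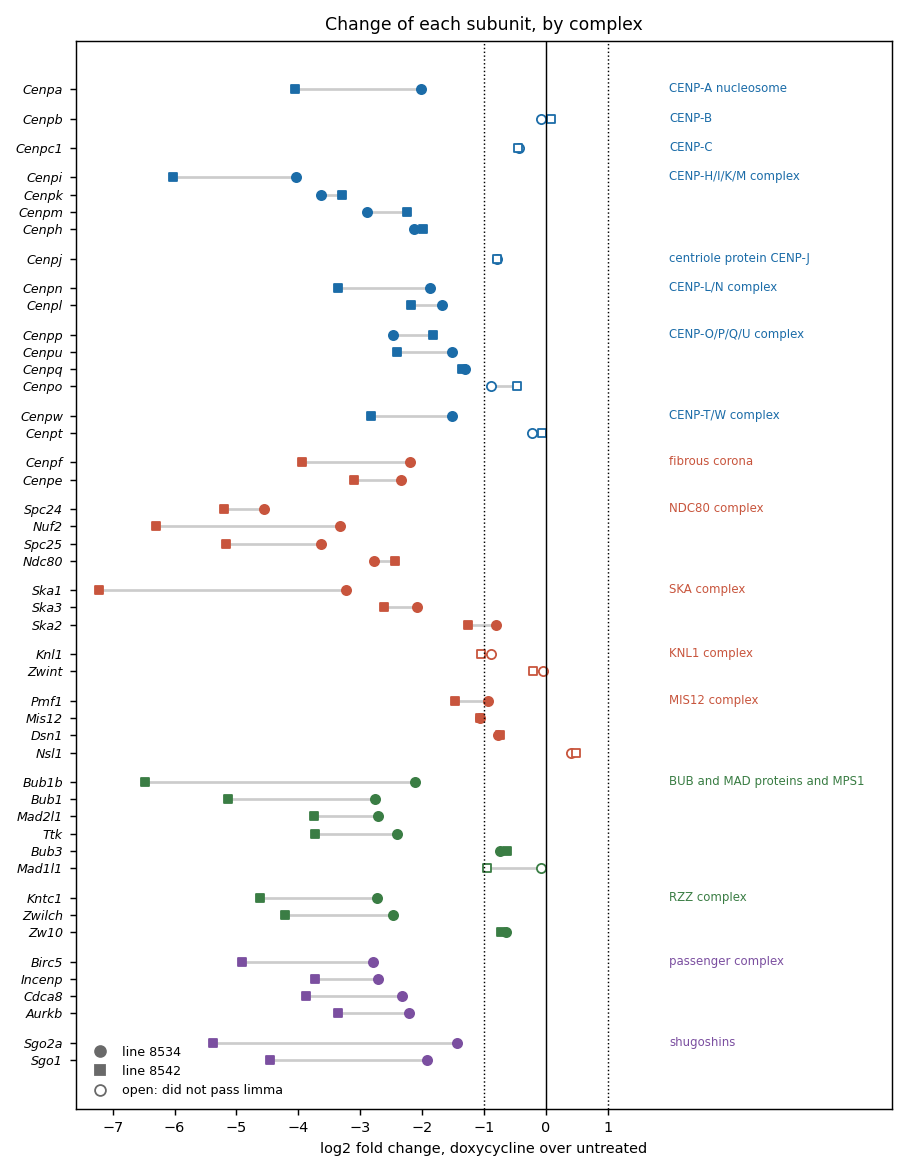
Log2 fold change, doxycycline over untreated (x axis), of each gene, arranged by the complex its product belongs to. Circles are line 8534 and squares line 8542, filled where the gene passed limma, and dotted lines mark a 2-fold change. The 4 NDC80 subunits lie between -2.43 and -6.29, and Cenpt, Zwint and Cenpb lie near 0.

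Of 9 checkpoint genes 8 fell, and the median over the 9 was a fall of 5.29-fold (line 8534) and 13.4-fold (line 8542). Bub1b, which encodes the inhibitor BUBR1 of the anaphase-promoting complex, had 74.6 and 4.08 units in treated cells of lines 8534 and 8542, against 322 and 364 units in untreated cells. Its falls of 4.32-fold and, with the low signal raised to 5.52 units, 66.0-fold were among the most unequal between the lines (-4.30 ± 3.09, limma adjusted p = 0.0216). The call was lost with no filter on level (limma adjusted p = 0.0548) and when its 3 probe sets were averaged (limma adjusted p = 0.0639). Bub1, the kinase that marks the centromere for shugoshin, had 38.4 and 6.92 units with doxycycline and 261 and 244 units without (-3.95 ± 1.68, limma adjusted p = 0.00389). In the RZZ complex, which brings dynein and MAD proteins to the kinetochore, Kntc1 had 42.3 and 11.9 units in treated cells, against 282 and 293 units in untreated cells (-3.68 ± 1.34, limma adjusted p = 0.00238). Zwilch, its partner, had 52.2 and 19.4 units in treated cells, against 288 and 361 units in untreated cells (-3.34 ± 1.24, limma adjusted p = 0.00260). For each of these genes the treated signal was lower in line 8542 than in line 8534, while the untreated signals were close.

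Mad2l1, the gene of the checkpoint effector MAD2, fell 6.58-fold and 13.4-fold (limma adjusted p = 0.000658), and Ttk, which encodes the checkpoint kinase MPS1, fell 5.29-fold and 13.2-fold. Bub3, the WD40 partner of BUB1 and BUBR1, fell only 1.68-fold and 1.54-fold (-0.68 ± 0.088, limma adjusted p = 0.0119). Zw10, the RZZ subunit that also acts in membrane traffic, fell 1.56-fold and 1.66-fold (limma adjusted p = 0.0430). With all probe sets averaged neither Bub3 nor Zw10 passed (limma adjusted p = 0.319 and 0.256), and Zw10 was also lost with quantile normalization (adjusted p = 0.0643) and no filter on level (limma adjusted p = 0.0611). Mad1l1, which encodes the MAD1 platform for MAD2, had 46.2 and 38.2 units in treated cells, against 48.5 and 73.6 units in untreated cells. Nearly all of its difference came from line 8542 (-0.51 ± 0.62, limma adjusted p = 0.374).

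All 4 genes of the passenger complex and both shugoshins fell by more than 2-fold in each line. Birc5, the gene of survivin, had 127 and 37.8 units in treated cells of lines 8534 and 8542, against 884 and 1137 units in untreated cells (-3.85 ± 1.50, limma adjusted p = 0.00225). Incenp, the scaffold of the complex, had 116 and 57.7 units with doxycycline and 764 and 763 units without, 6.56-fold and 13.2-fold lower (-3.22 ± 0.72, limma adjusted p = 0.000590). Cdca8, which encodes borealin, fell 4.99-fold and 14.7-fold, and Aurkb, the gene of the kinase Aurora B, fell 4.60-fold and 10.2-fold. The 4 subunits spanned falls of 4.60-fold to 6.93-fold in line 8534 and a wider 10.2-fold to 30.1-fold in line 8542. The shugoshins protect cohesin at the centromere. Sgo1 had 87.7 and 8.29 units in treated cells, against 333 and 182 units in untreated cells (-3.19 ± 1.79, limma adjusted p = 0.0101). Sgo2a had 48.5 and 5.19 units in treated cells, against 130 and 215 units in untreated cells (-3.40 ± 2.79, limma adjusted p = 0.0380). Its changes were the most unequal of the group, 2.69-fold in line 8534 and, with the low signal raised to 5.52 units, 39.0-fold in line 8542, and its call was lost with quantile normalization (adjusted p = 0.0552) and no filter on level (limma adjusted p = 0.0845).

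Side by side, the median log2 fold change was -2.01 for the centromere proteins, -2.35 for the outer kinetochore, -3.23 for the spindle checkpoint and -3.20 for the passenger complex and shugoshins. The ranges overlapped, with -5.03 to 0.0020 for the centromere proteins, -5.22 to 0.45 for the outer kinetochore, -4.30 to -0.51 for the checkpoint and -3.85 to -2.78 for the passenger group. Differences between the groups were not tested.

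The 2 lines ranked the genes in much the same way but differed in the size of the fall. Across the 46 genes, which are not independent replicates, the changes of the lines correlated (Pearson r = 0.82, Spearman rho = 0.81), beside 0.52 and 0.46 across all genes tested. Of the 44 genes that were lower in both lines 33 (75%) were lowered more in line 8542, against 54.1% of all genes lower in both. A fall of more than 10-fold was seen for 4 of the 46 genes in line 8534, against 0.372% of all genes tested, and for 20 in line 8542, against 0.856%. On the doxycycline arrays 39 of the 46 genes were lower in line 8542 than in line 8534, with a median difference of -0.82 on the log2 scale (8542 minus 8534) and a median absolute difference of 0.89. On the untreated arrays 25 of the 46 were lower in line 8542, with a median difference of -0.02 and a median absolute difference of 0.18. Single genes differed more without the drug, with differences of -1.30 for Cenph to 0.72 for Sgo2a. Over all genes tested both median differences were near 0 (0.0033 with doxycycline and 0.02 without). With 1 array per line and condition the difference between the lines could not be tested, and the lines, their tumors of origin and their arrays cannot be told apart.

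**Figure D3:**
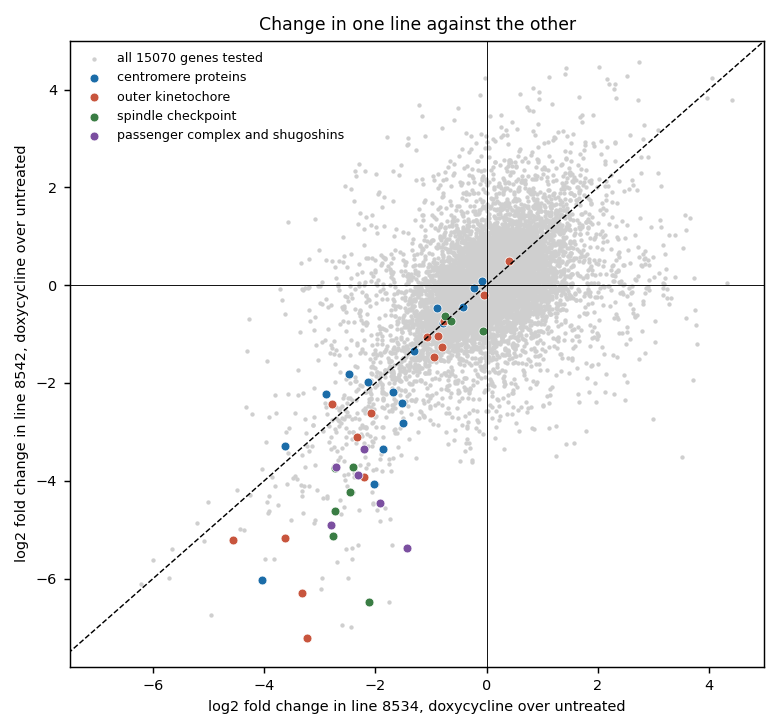
Log2 fold change (doxycycline over untreated) in line 8534 (x axis) against that in line 8542 (y axis), 1 point per gene, with the 46 genes colored by role, all 15070 genes tested in gray and 4 of these outside the axes. The dashed line marks equal change, and most colored points with a large fall lie below it.

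The further probe sets of a gene did not always give the same call. Of the 46 genes 27 had more than 1 probe set, with 51 further probe sets between them, of which 39 were tested. Of these 39, 17 were called lower, none higher and 22 did not pass, and 46 of the 51 had a lower mean value with doxycycline. In 5 the mean change ran opposite to that of the probe set used, and these belonged to Nsl1, Zwint and Cenpa. The Cenpa probe set 1441864_x_at changed by -0.02 in line 8534 and 0.03 in line 8542, while 1444416_at was called lower (-1.94, limma adjusted p = 0.0183). Of the 20 called genes with a further tested probe set, 13 had at least 1 that was called lower, among them Aurkb, Cdca8, Incenp, Ttk, Sgo1, Bub1b and Cenpn. The other 7, Bub1, Cenpe, Cenpf, Cenpk, Cenpu, Ska1 and Spc25, had none. With probe sets averaged, Cenpk, Bub1b, Bub3 and Zw10 were no longer called and the sign of Nsl1 turned, as given above, and in that fit Sgo2a, with its 1 probe set, was not called either (limma adjusted p = 0.0744). Ska1 lay under the filter once averaged and was not tested.

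**Figure D4:**
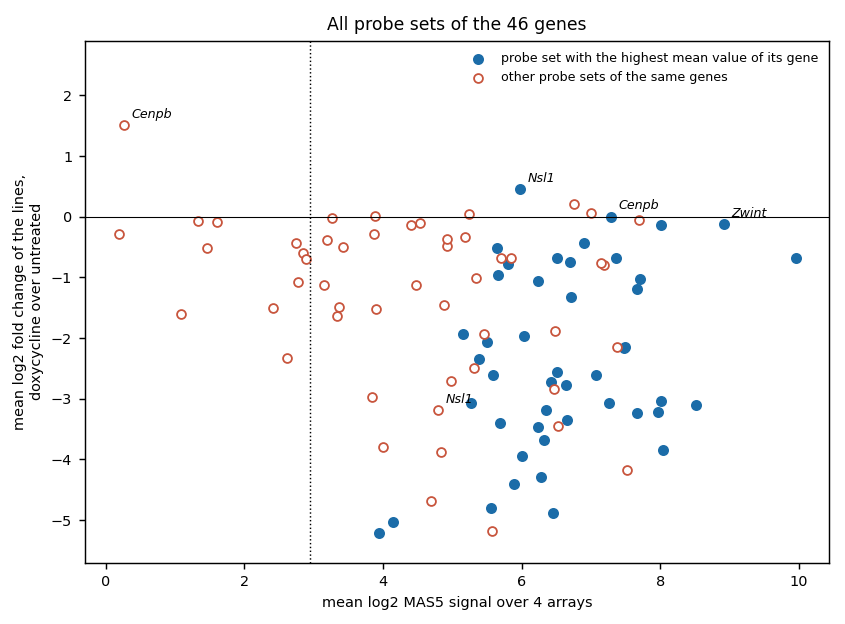
Mean log2 fold change over the 2 lines, doxycycline over untreated (y axis), against mean log2 MAS5 signal over the 4 arrays (x axis) for all probe sets of the 46 genes. Filled points are the probe set used for each gene, open points the further ones, and the dotted line marks the filter of the fit at 2.94. The further Nsl1 probe set lies at -3.18, apart from the one used at 0.45.

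Because the genes moved together, their promoters were searched for elements known from genes of the cell cycle. The CHR element (TTTGAA) and the CCAAT box (CCAAT) are known from promoters that are active late in the cell cycle, E2F elements (TTCGCGC and its variants TTGGCGC as well as TCCCGCC) from promoters of the G1/S transition, and the CSL element (TGGGAA) is bound by the DNA-binding partner of NOTCH. Windows of 300 bases around the RefSeq start (build GRCm38.p6) were at hand for 40 of the 46 genes and were read on both strands. A stretch of 160 bases, the last 130 before the start and the first 30 after it, is shown for 1 called gene of each role that holds both a CHR element and CCAAT boxes, and for Cenpt, whose change did not pass. These were picked for their elements and do not stand for all genes. The Cenpt window lies inside the gene, which spans chr8:105844669-105855086 on the minus strand, and so surrounds an inner start. Bases around the outermost start of Cenpt were not read. The called genes Nuf2, Mad2l1, Birc5, Cenpp and Dsn1 held neither element. Of those that did not pass, Knl1 held a CHR element and Zwint and Cenpc1 a CCAAT box. Capitals mark CHR elements and CCAAT boxes on either strand.
Cenpa, chr5:30666756-30666915, plus strand: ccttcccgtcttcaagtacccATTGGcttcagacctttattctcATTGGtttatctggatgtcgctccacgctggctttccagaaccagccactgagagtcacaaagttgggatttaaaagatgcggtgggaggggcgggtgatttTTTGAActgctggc
Spc25, chr2:69206184-69206343, minus strand: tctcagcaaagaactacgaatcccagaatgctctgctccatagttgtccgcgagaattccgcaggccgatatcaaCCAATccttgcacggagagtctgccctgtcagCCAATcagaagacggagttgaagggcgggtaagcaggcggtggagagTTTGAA
Ttk, chr9:83834559-83834718, plus strand: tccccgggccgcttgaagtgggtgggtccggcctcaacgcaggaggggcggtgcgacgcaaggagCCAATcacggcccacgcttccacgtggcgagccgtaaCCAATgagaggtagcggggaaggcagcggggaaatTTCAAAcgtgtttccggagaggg
Cdca8, chr4:124936888-124937047, minus strand: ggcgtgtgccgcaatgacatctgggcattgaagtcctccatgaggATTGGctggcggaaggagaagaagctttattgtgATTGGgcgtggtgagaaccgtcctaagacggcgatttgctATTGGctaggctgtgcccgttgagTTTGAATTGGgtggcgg
Cenpt, chr8:105851979-105852138, minus strand: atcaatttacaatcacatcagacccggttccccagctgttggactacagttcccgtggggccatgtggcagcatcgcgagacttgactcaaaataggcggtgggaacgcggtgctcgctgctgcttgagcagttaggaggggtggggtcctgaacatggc

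In these windows the CHR element began 17 bases after the start in Cenpa, 25 in Spc25, 14 in Cdca8 and, on the other strand, 8 in Ttk. The nearest CCAAT box before it began 86 bases ahead of the start in Cenpa, 23 in Spc25, 28 in Ttk and 11 in Cdca8, where a further box overlaps the CHR element by 1 base. Of the 40 genes 16 (40%) had a CHR element, against 20.2% of all 27025 genes in the promoter table and 15% of the genes tested on the array. A CCAAT box was found in 26 (65%), against 41.1% and 42.2%, and both together in 12 (30%), against 7.97% and 5.82%. All 12 of these were among the 32 called genes with a window, and none was among the 8 with a window that were not called. With a share of 5.82% over the genes tested, 8 genes are too few to compare. E2F elements were found in 17 (42.5%), against 16.1% and 26.8%, and the CSL element in 10 (25%), against 28.3% and 27.5%. By call, the CHR element was in 15 of the 32 and 1 of the 8, and a CCAAT box in 24 and 2. E2F elements were in 13 of the 32 and 4 of the 8, and the CSL element in 7 and 3. None of these splits was tested. These matches describe letters in the windows only, and whether a factor binds there was not measured.

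Other genes of the kinetochore and the checkpoint, from a list of 32 of which 30 had a probe set with a single symbol and 29 were tested, fell by less. Of the 29, 20 fell, none rose and 9 did not pass, with a median fall of 1.98-fold (line 8534) and 2.05-fold (line 8542). Oip5, which encodes a loading factor of CENP-A, had 7.22 and 16.2 units in treated cells, against 109 and 105 units in untreated cells (limma adjusted p = 0.00262). Cenps, a histone-fold protein of the constitutive network, fell 4.52-fold and 13.3-fold. Cdc20, the activator that the checkpoint restrains, fell 4.13-fold and 13.8-fold, and Trip13, an ATPase that remodels MAD2, fell 4.67-fold and 9.98-fold. Of the nuclear pore subunits that also sit at kinetochores, Nup107, Nup85, Nup133, Nup160, Nup37 and Nup43 fell, by 1.49-fold to 3.08-fold, and Seh1l and Ahctf1 did not pass (limma adjusted p = 0.395 and 0.0555). With probe sets averaged the calls of Nup133 (limma adjusted p = 0.203) and Nup160 (limma adjusted p = 0.874) were lost, and that of Nup160 also with quantile normalization (adjusted p = 0.0605) and no filter on level (limma adjusted p = 0.0631). Mad2l1bp, which acts on MAD2 with Trip13, did not pass either (0.22 ± 0.11, limma adjusted p = 0.510).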

How the data were processed

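Total RNA from 4 cultures was hybridized to Affymetrix mouse genome arrays. The authors summarized the probes of each array with MAS5, and the deposited values are log2 signals. The base of the logarithm was read from the values, since base 2 gave trimmed means near 100.0 units on each array, while for the scaling target and the MAS5 version nothing was given in the sources used here. The platform annotation gave 1 gene symbol for 34945 of 45037 probe sets (64 controls left out), and each gene was read from the probe set of highest average log2 value. Changes are doxycycline minus untreated within a line. limma 3.58.1 (R 4.3.3) was fitted with cell line and treatment, an intensity trend and Benjamini-Hochberg adjustment to 33778 probe sets, those whose average log2 value reached the 25th percentile (2.94), with 1 residual degree of freedom. All 46 genes passed this filter. Line pairs the arrays because both come from 1 cell line (correlation of deviations 0.36). No floor was applied unless stated, the floor being the 20th percentile of all values (5.52 units). The p-values rest on the spread between 2 lines and, through the variance model, on that of other probe sets of like intensity. The median prior degrees of freedom were 6.18. No spread between cultures of 1 line was measured. Genes and lists were chosen with earlier results of these data known, and the complexes within a role were grouped after the values were seen. Full values are given for up to 4 genes of each role with the largest mean fall, for genes that did not pass and for those whose probe sets disagree. The fit was checked on simulated arrays. Alternatives were no block, no trend, quantile normalization, median centring, other filters, a floor, a pseudocount, the mean of all probe sets and each line alone. Promoter windows are from RefSeq (GRCm38.p6), matched by symbol and gene ID.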

Additional observations from a re-analysis of the deposited data

Results flagged for a closer look

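Cenpb changed in opposite directions in the 2 lines, with log2 fold changes of -0.08 (8534) and 0.08 (8542). They differed by 0.17, and this was not tested. No other gene of the 46 did so by the probe set used.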

How the results depend on the processing

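The number of the 46 genes called lower by limma was 37. It was 32 to 37 under quantile normalization, median centring, the other filters, the floor, the pseudocount and the mean of all probe sets, and 29 of the 37 genes were tested and called under each of these. Of the others 6 were lost under at least 1 (Dsn1, Zw10, Sgo2a, Bub1b, Cenpk and Bub3), and 2, Ska1 and Cenpi, were under the filter at the median level and so not tested there. No alternative called any of the 46 higher. Without the replicate block, which ignores the pairing by line, limma called 1 (39 were lower at an unadjusted p under 0.05), and without the intensity trend it called 0 (38 at an unadjusted p under 0.05). Each line alone gave 32 to 35 genes more than 2-fold lower, and a median log2 fold change of -2.72 to -2.05. A fit without 1 line had no residual degrees of freedom and gave no test. The sign of the mean change turned for Cenpb with median centring (-0.00448), and for Nsl1 (-1.37) and Clasp2 (0.39) over the mean of all probe sets, and the cause was not tested. Kif2c, which did not pass by the probe set used, was called lower once its probe sets were averaged (-1.46, limma adjusted p = 0.0124). Signals under 5.52 units limit the size of the falls of Cenpi, Nuf2, Ska1, Bub1b and Sgo2a in line 8542.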
